A study of Arabidopsis thaliana with 12 samples.

Results

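The genes described here are 10 of the 33010 genes measured in Arabidopsis thaliana seedlings. These 10 were chosen by name, with earlier results of these data known, as those that roots use to acquire iron. They are the iron transporter genes IRT1 (AT4G19690) and IRT2 (AT4G19680), the ferric chelate reductase gene FRO2 (AT1G01580), the transcription factor genes FIT (AT2G28160, named FRU in the deposited table), MYB10 (AT3G12820) and MYB72 (AT1G56160), the coumarin synthesis genes F6'H1 (AT3G13610), S8H (AT3G12900) and CYP82C4 (AT4G31940), and the exporter gene PDR9 (AT3G53480, named ABCG37 in the table). RNA was sequenced from shoots and roots of wild-type Col-0 plants (WT) and of plants that overexpress CCA1 (CCA1-ox), whose product is a MYB factor at the core of the circadian clock, with 3 libraries in each of the 4 groups. All seedlings were 8 days old and had grown at 22 °C under white light kept on throughout at 15 µE. The promoter that drives CCA1, the transgenic line, the iron content of the medium and the time of day of harvest are not stated in the labels, and no separate cultures are named, so p-values measure only the spread between these libraries, which may be technical. By its title, the study asks how the clock shapes proton gradients and cell growth.

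Arabidopsis takes up iron by a reduction strategy. The root epidermis acidifies the soil, the membrane reductase FRO2 reduces ferric chelates to ferrous iron, and IRT1 carries ferrous iron into the cell, while IRT2 is a close relative of IRT1 in epidermal cells. The bHLH factor FIT, which acts as a dimer with bHLH partners such as BHLH38 and BHLH39, switches on these genes when iron is short, and MYB10 and MYB72 are related MYB factors needed for growth on poorly available iron. Roots also secrete coumarins that mobilise iron. F6'H1 makes the precursor of scopoletin, S8H hydroxylates scopoletin to fraxetin, CYP82C4 oxidises fraxetin to sideretin, and PDR9 is an ATP-driven exporter of the plasma membrane implicated in their secretion.

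The promoters of 3 genes are shown because the results turn on them: F6'H1 was the coumarin gene with the highest level, S8H had the largest rise, and IRT1 is the main uptake gene. Each is the 300 bases before the annotated start of the gene on the RefSeq annotation of TAIR10.1, 5′ to 3′ on the plus strand, and capitals mark matches to the motifs listed after the sequences. The F6'H1 window is chr3:4448959-4449258, the S8H window is chr3:4104163-4104462 and the IRT1 window is chr4:10707044-10707343.
F6'H1: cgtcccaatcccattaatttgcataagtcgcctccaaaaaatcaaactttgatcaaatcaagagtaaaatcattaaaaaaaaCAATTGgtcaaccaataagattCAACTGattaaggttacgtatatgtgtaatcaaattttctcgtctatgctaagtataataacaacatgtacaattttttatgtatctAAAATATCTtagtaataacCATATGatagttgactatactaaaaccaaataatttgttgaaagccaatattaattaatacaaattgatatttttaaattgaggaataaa
S8H: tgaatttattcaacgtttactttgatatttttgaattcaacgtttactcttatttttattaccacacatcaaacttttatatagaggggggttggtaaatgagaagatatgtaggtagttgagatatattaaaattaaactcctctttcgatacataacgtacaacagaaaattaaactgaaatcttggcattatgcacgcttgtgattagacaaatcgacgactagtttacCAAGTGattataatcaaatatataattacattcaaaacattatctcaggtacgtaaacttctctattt
IRT1: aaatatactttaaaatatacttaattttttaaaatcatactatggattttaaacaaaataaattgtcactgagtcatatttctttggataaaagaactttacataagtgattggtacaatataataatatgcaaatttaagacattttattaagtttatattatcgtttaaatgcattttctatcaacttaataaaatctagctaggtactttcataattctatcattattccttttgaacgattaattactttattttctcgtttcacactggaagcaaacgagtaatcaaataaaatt
Both strands were searched for the evening element AAAATATCT and the site AAAAATCT, both known as CCA1-binding sequences, the G-box CACGTG and the E-box CANNTG, which contains the G-box and is a class of sequence bound by bHLH factors. The evening element was found in the window of 1 of the 10 genes, F6'H1, at 109 to 101 bases before its start. It is in 2.64% of all 32721 promoter windows of the same length. The site AAAAATCT was in 0 of the 10 windows, against 7.61% of all promoters, and the G-box in 0 of 10, against 6.49%. E-boxes were in 5 of 10 windows, those of FIT, F6'H1, S8H, MYB10 and PDR9, against 62.3% of all promoters. Within 1000 bases, F6'H1 was again the gene with the evening element (6.93% of all promoters), IRT2 and F6'H1 held AAAAATCT (20.7%), and IRT1 and F6'H1 held a G-box (14.1%). A match is a sequence description and not a measured binding site.

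The labels held in the target gene. CCA1 stood at 44.96 ± 0.202 FPKM (fragments per kilobase, with library size taken out, mean ± SD, n = 3) in WT shoots and 214 ± 1.98 in CCA1-ox shoots, and at 17.1 ± 0.838 in WT roots against 175 ± 4.36 in CCA1-ox roots. Between 27142671 and 45051329 fragments lay behind each library, and the least deep library was a CCA1-ox root. The tissue labels also held: 8 markers of green tissue summed to 43548 to 43618 FPKM in WT shoots and to 45.6 to 46.7 in WT roots, while 10 root hair markers summed to 1.26 to 1.34 in WT shoots and to 103 to 105 in WT roots. Levels are given in FPKM as deposited, which are per gene length, so that levels can be set side by side, and gene positions are on TAIR10. Fold changes with a standard error (SE) and an adjusted p are log2 differences of FPKM + 1 from limma, with Benjamini-Hochberg adjustment over all 20975 genes tested, and a gene is called when the adjusted p is under 0.05.

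In CCA1-ox roots all 9 genes of the group that passed the filter on low values (at least 1 FPKM in at least 3 libraries) rose against WT roots, by 0.25 to 2.28 on the log2 scale, and 0 fell. Of all genes tested, 20.8% were called higher in roots and 15.4% lower. Because the 10 genes were chosen with earlier results of these data known, these shares give a scale and no test of the group. The median log2 change was 0.81 over the 9 genes and 0.016 over all genes. The count held with each library scaled to its summed fragments (9 higher, 0 lower), although that scaling moved the share of higher genes among all root calls from 57.4% to 38.8%. The 9 genes met the filter in the WT root libraries already, while MYB72 was too low to be tested and is described with the regulators.

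**Figure D1:**
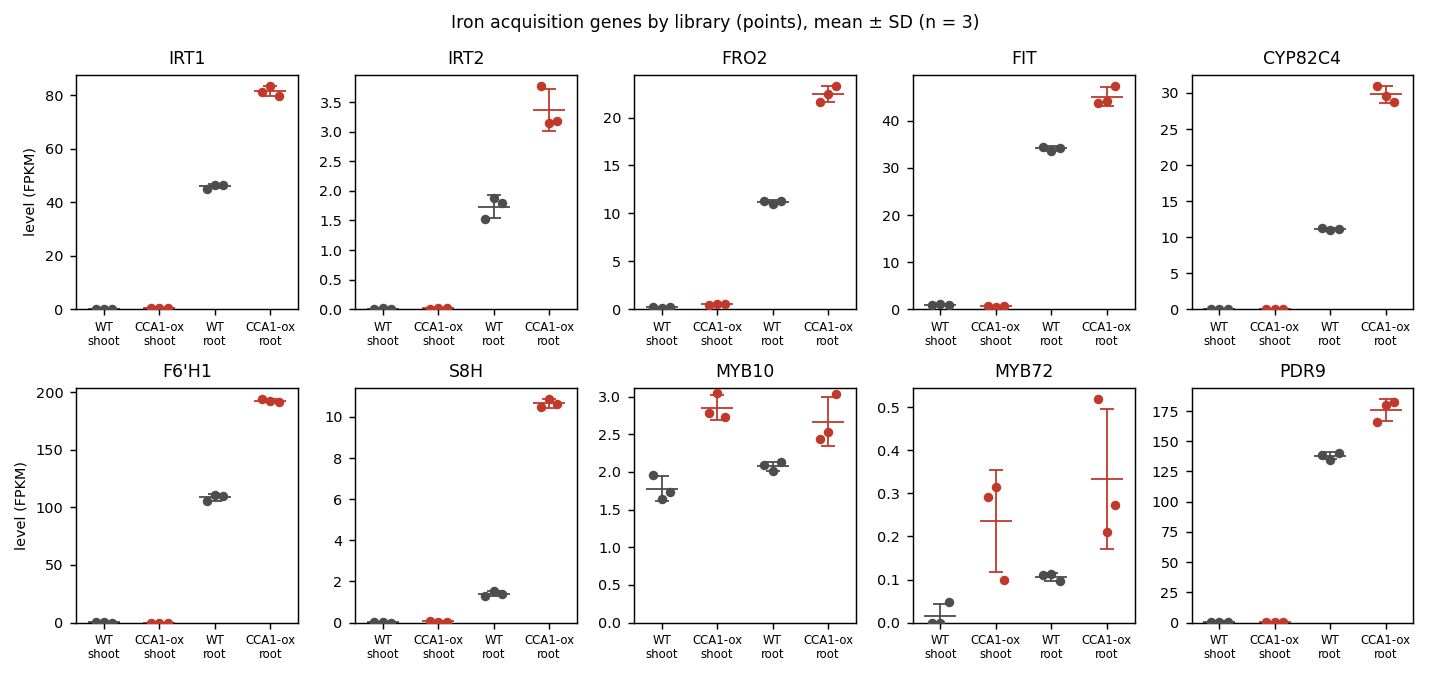
FPKM of the 10 iron acquisition genes in each of the 12 libraries (points), with the mean and SD (n = 3) of each group. Each panel has its own vertical axis from 0. For each gene but MYB10 and MYB72 every root library stood above every shoot library, and the CCA1-ox root points lay above the WT root points in each panel.

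The uptake genes IRT1, FRO2 and IRT2 rose by similar log2 amounts. IRT1 (chromosome 4, 10707344 to 10709015, plus strand) was at 44.98, 46.5 and 46.3 FPKM in the WT root libraries and at 80.98, 83.5 and 79.7 in the CCA1-ox root libraries. The ranges lay far apart, and the 1.77-fold rise of the mean level was called (log2 0.81, SE 0.0451, limma adjusted p = 1.47e-08). FRO2 (chromosome 1, 208995 to 213082, plus strand) was at 11.3, 11.02 and 11.3 FPKM in WT roots and at 21.6, 22.5 and 23.3 in CCA1-ox roots. Every CCA1-ox root library thus exceeded every WT root library, with a fold of 2.002 (log2 0.94, SE 0.0581, limma adjusted p = 4.08e-08). IRT2 (chromosome 4, 10703348 to 10704838, plus strand) was far less abundant, with 1.52, 1.88 and 1.79 FPKM in WT roots and 3.78, 3.15 and 3.18 in CCA1-ox roots. Its first CCA1-ox library stood above the other two, and the groups did not overlap (fold 1.95, log2 0.68, SE 0.0769, limma adjusted p = 1.35e-05).

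The proportions among the uptake genes were compared within libraries. The FRO2 level was 24.5% ± 0.768 of the IRT1 level in WT roots against 27.6% ± 1.41 in CCA1-ox roots (SD, n = 3), and these ranges did not overlap. The IRT2 level was 3.76% ± 0.349 of that of IRT1 in WT roots against 4.15% ± 0.462 in CCA1-ox roots, and these ranges overlapped. IRT2 and IRT1 are neighbours on chromosome 4, 2506 bases apart, and share 76.0% of aligned coding bases, with a longest identical stretch of 22 bases. The FRO2 paralog FRO1 (AT1G01590), its next gene on the higher-coordinate side, was close to 0 in roots, at 0.00245 ± 0.00425 FPKM for WT against 0.00792 ± 0.0137 for CCA1-ox (n = 3).

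Among the regulators, FIT had a smaller log2 rise than the 3 uptake genes. FIT (chromosome 2, 12004658 to 12006276, plus strand) was at 34.5, 33.6 and 34.3 FPKM in WT roots and at 43.7, 44.3 and 47.5 in CCA1-ox roots. The groups did not overlap, and the 1.32-fold rise was called (log2 0.39, SE 0.0546, limma adjusted p = 8.44e-05). The IRT1 level was 135% ± 4.01 of the FIT level in WT roots against 181% ± 11.2 in CCA1-ox roots (SD, n = 3), with no overlap between the libraries of the groups.

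MYB10 (chromosome 3, 4073855 to 4075643, minus strand) was at 2.10, 2.01 and 2.13 FPKM in WT roots and at 2.44, 2.53 and 3.04 in CCA1-ox roots. The third CCA1-ox library stood apart from the others, and the log2 rise of 0.25 (SE 0.0741, limma adjusted p = 0.0176) was the smallest in the group on this scale. On the level the fold was 1.284 for MYB10, against 1.275 for PDR9. The call was lost without that library (adjusted p = 0.0806), without WT root replicate 2 (0.0576) and when the fragments behind the FPKM were tested with limma's voom (0.0967). Of MYB10, 340 of the 1789 bases lie opposite PIE1 (AT3G12810), which was at 8.54 ± 0.0979 FPKM in WT roots against 8.13 ± 0.492 in CCA1-ox roots, and since the strand setting of the counting is not given, fragments of these genes cannot be told apart there.

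MYB72 (chromosome 1, 21022384 to 21023587, plus strand) was near the limit of detection. It was at 0.111, 0.112 and 0.0960 FPKM in WT roots, from 16 fragments in all, and at 0.519, 0.211 and 0.274 in CCA1-ox roots, from 35 fragments. The 3 CCA1-ox root values lay above the WT values and were themselves spread widely. Without the filter on low values its log2 difference in roots was 0.26 (SE 0.0834, limma adjusted p = 0.0365), and in shoots 0.28 (SE 0.0834, adjusted p = 0.0187). Of its 1204 bases, 829 lie opposite AT1G56165, which was at 0.588 ± 0.0930 FPKM in WT roots, so its few fragments may belong to either gene.

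The coumarin genes had the widest spread of responses. F6'H1 (chromosome 3, 4449259 to 4450811, plus strand) was at 105, 111 and 109 FPKM in WT roots and at 194, 192 and 191 in CCA1-ox roots, a fold of 1.77 (log2 0.82, SE 0.0381, limma adjusted p = 2.59e-09). S8H (chromosome 3, 4104463 to 4106341, plus strand) was at 1.28, 1.53 and 1.39 FPKM in WT roots and at 10.5, 10.9 and 10.6 in CCA1-ox roots. This was the largest rise of the group, 7.62-fold on the level, with single pairs of libraries between 6.86-fold and 8.47-fold (log2 2.28, SE 0.0625, limma adjusted p = 1.48e-11). CYP82C4 (chromosome 4, 15451988 to 15454224, plus strand) was at 11.2, 10.97 and 11.2 FPKM in WT roots and at 31.0, 29.6 and 28.7 in CCA1-ox roots, a fold of 2.68 (log2 1.34, SE 0.0509, limma adjusted p = 3.37e-10). In none of these 3 genes did a CCA1-ox root library come near the WT range.

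The ratios between the steps of the coumarin route moved. The S8H level was 1.29% ± 0.0799 of the F6'H1 level in WT roots against 5.54% ± 0.130 in CCA1-ox roots (SD, n = 3). The CYP82C4 level was 10.3% ± 0.388 of that of F6'H1 in WT roots against 15.5% ± 0.482 in CCA1-ox roots. Neither pair of ranges overlapped. F6'H2 (AT1G55290), the paralog of F6'H1 with 76.6% identical coding bases, was at 1.10% ± 0.233 of F6'H1 in WT roots against 0.899% ± 0.220 in CCA1-ox roots, where the ranges overlapped.

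CYP82C4 has a pair of close relatives in the genome. It shares 92.7% of aligned coding bases with CYP82C3 (AT4G31950), its next gene on the higher-coordinate side, and 93.0% with CYP82C2 (AT4G31970), with identical stretches of up to 97 and 78 bases. CYP82C3 was at 0.00854 ± 0.00748 FPKM in WT roots against 0.0565 ± 0.0569 in CCA1-ox roots, whereas CYP82C2 rose from 22.6 ± 1.24 to 39.0 ± 0.529 (log2 0.76, SE 0.0566, limma adjusted p = 2.39e-07). How fragments from shared stretches were assigned is not given, so the values of CYP82C4 and CYP82C2 are uncertain to that extent. F6'H1 overlaps PUT4 (AT3G13620) on the other strand by 67 of its 1553 bases, and PUT4 was at 5.05 ± 0.248 FPKM in WT roots against 5.53 ± 0.346 in CCA1-ox roots.

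The exporter gene PDR9 (chromosome 3, 19825267 to 19831880, plus strand) was the most abundant of the 10 genes in WT roots, at 138, 135 and 140 FPKM. In CCA1-ox roots it was at 166, 180 and 182 FPKM, above every WT library. The 1.28-fold rise was called (log2 0.35, SE 0.0740, limma adjusted p = 0.00230), but not with a pseudocount of 0.1 in place of 1, where the log2 difference was 0.35 (adjusted p = 0.109). The F6'H1 level was 78.7% ± 3.24 of the PDR9 level in WT roots against 110% ± 6.58 in CCA1-ox roots, with no overlap.

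**Figure D2:**
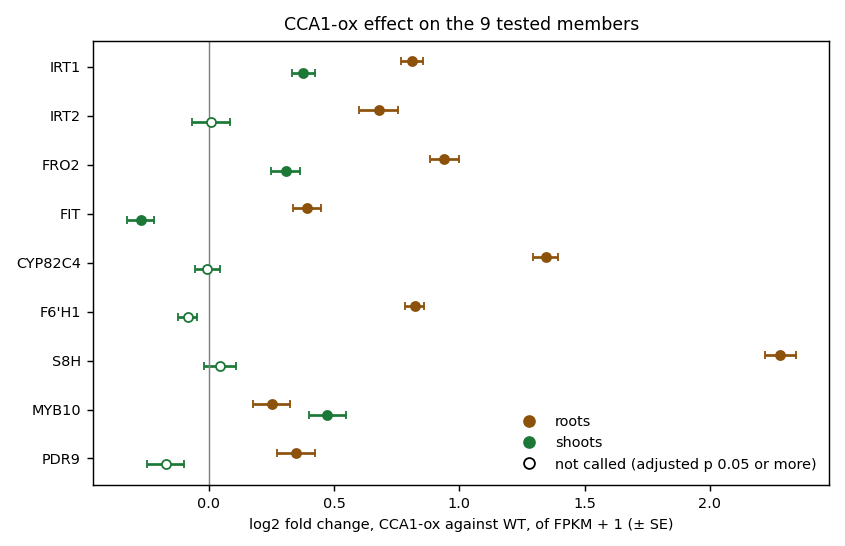
Log2 fold change of FPKM + 1, CCA1-ox against WT, in roots (brown) and shoots (green) for the 9 tested genes, with bars of 1 SE. Filled points were called at an adjusted p under 0.05. All 9 root points are filled and above 0, from 0.25 for MYB10 to 2.28 for S8H, while 4 shoot points are filled and FIT lies below 0.

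The order of the levels in roots differed between the genotypes. In WT roots it was PDR9, F6'H1, IRT1, FIT, FRO2, CYP82C4, MYB10, IRT2, S8H and MYB72, from the highest mean to the lowest, and the neighbours FRO2 and CYP82C4, and IRT2 and S8H, overlapped. In CCA1-ox roots F6'H1 stood above PDR9, CYP82C4 above FRO2, S8H above IRT2 and MYB10, and IRT2 above MYB10, and no neighbours in the order overlapped. The 10 genes together summed to 351 to 358 FPKM in WT roots and, for CCA1-ox roots, to 554 to 570, a fold of 1.59 for the mean sums. By role, the mean sums were higher by 1.82-fold for the 3 uptake genes, 1.92-fold for the 3 coumarin genes, 1.33-fold for the 3 regulators and 1.28-fold for PDR9; these are descriptions with no test.

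The genes were mostly expressed in roots. In WT, 8 of the 9 tested genes were called higher in roots than in shoots (background 45.3% of all genes tested), with a median log2 difference of 3.59 against 0.035 over all genes. In CCA1-ox the count was also 8 (background 45.2%), with a median of 4.82 against 0.042. The genes were chosen as root genes, and these 8 had means under 1 FPKM in both shoot groups. They passed the filter through the root libraries. The counts and medians thus follow from the choice of genes and the filter, and are no test of the organs. On the log2(FPKM + 1) scale F6'H1 had the largest difference between organs in both genotypes, 6.69 in WT and 7.60 in CCA1-ox (SE 0.0381). The rank holds for that scale only, because the pseudocount compresses genes near 0 in shoots, such as CYP82C4 (11.1 FPKM in WT roots, 0.00472 in WT shoots). MYB10 was the exception, with 0.15 in WT (limma adjusted p = 0.0734) and −0.074 in CCA1-ox (adjusted p = 0.359). Its WT difference was called when libraries were scaled to summed fragments (0.38, adjusted p = 0.000308), tested with voom (0.57, 0.00185), or fitted without WT shoot replicate 1 (0.20, 0.0372) or without CCA1-ox root replicate 3 (0.15, 0.0463). Scaling to summed fragments moved the median of all genes by 0.30 in the WT organ comparison and by 0.15 in the CCA1-ox one, and the share of higher genes among the WT calls from 52.0% to 65.6%.

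In shoots the group did not move as one. IRT1, FRO2 and MYB10 rose in CCA1-ox shoots, FIT fell, and IRT2, CYP82C4, F6'H1, S8H and PDR9 were not called. In all, 26.6% of genes tested were called higher in shoots and 28.9% lower, and the share of higher genes among calls was 48.0% as deposited and 66.0% scaled to summed fragments. The median log2 difference was 0.0089 over the 9 genes and −0.0083 over all genes. The 10 genes summed to 3.804 to 3.90 FPKM in WT shoots and to 5.03 to 5.44 in CCA1-ox shoots.

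MYB10 had the highest level of the 10 genes in shoots of both genotypes. It was at 1.96, 1.64 and 1.74 FPKM in WT shoots and at 2.78, 3.05 and 2.73 in CCA1-ox shoots, a called rise of 1.61-fold without overlap (log2 0.47, SE 0.0741, limma adjusted p = 0.000106). PIE1, opposite to it, was at 9.80 ± 0.0479 and 10.4 ± 0.211 FPKM in these groups. FIT was at 0.947, 1.08 and 0.885 FPKM in WT shoots and at 0.638, 0.549 and 0.707 in CCA1-ox shoots, and fell by 0.27 on the log2 scale (SE 0.0546, limma adjusted p = 0.000788). This call was lost with voom (adjusted p = 0.124).

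The reductase and the transporter were low in shoots and still higher in CCA1-ox. FRO2 was at 0.244, 0.150 and 0.236 FPKM in WT shoots and at 0.415, 0.541 and 0.532 in CCA1-ox shoots, from 68 and 159 fragments in all (log2 0.31, SE 0.0581, limma adjusted p = 0.000533). The FRO2 call was lost with quantile normalization (0.047, adjusted p = 0.538). IRT1 was at 0.0711, 0.0683 and 0.0796 FPKM in WT shoots and at 0.405, 0.450 and 0.328 in CCA1-ox shoots, and the groups were far apart (log2 0.38, SE 0.0451, limma adjusted p = 9.28e-06). The values rest on 13 fragments in the 3 WT libraries and 69 in the 3 CCA1-ox libraries, and their ratio was 5.40.

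The genes that were not called in shoots were at or near 0 there. F6'H1 had 10 fragments in the 3 WT shoot libraries (0.0946, 0.0545 and 0.0339 FPKM) and was listed at 0 in all 3 CCA1-ox shoot libraries. Its difference of −0.085 on the log2 scale missed the threshold (limma adjusted p = 0.0751) and passed it in 5 alternatives, among them a fit without WT shoot replicate 3 (−0.10, adjusted p = 0.0450) and voom (−2.72, 0.00470). CYP82C4 had 1 fragment in WT shoots and was listed at 0 in CCA1-ox shoots, IRT2 had 1 and 2 fragments, and S8H had 3 and 8. PDR9 was at 0.498, 0.838 and 0.786 FPKM in WT shoots and at 0.417, 0.479 and 0.641 in CCA1-ox shoots, where the groups overlapped (log2 −0.17, SE 0.0740, limma adjusted p = 0.0643). The PDR9 difference was called lower with quantile normalization (−0.39, adjusted p = 0.000344), without WT shoot replicate 1 (−0.26, 0.00304) and without CCA1-ox shoot replicate 3 (−0.23, 0.0217). MYB72 was at 0, 0 and 0.0482 FPKM in WT shoots and at 0.293, 0.314 and 0.0993 in CCA1-ox shoots.

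Levels of abundant root genes and of cell type markers in the shoot libraries stand beside these calls. F6'H1, at 192 ± 1.39 FPKM in CCA1-ox roots, was listed at 0 in all 3 CCA1-ox shoot libraries. Other genes abundant in CCA1-ox roots differed. BGLU21 (AT1G66270, 353 ± 5.66 there) was at 0.0619 and 0.0996 FPKM in WT and CCA1-ox shoots. BGLU22 (237 ± 3.65 in CCA1-ox roots) was at 0.199 and 1.15 FPKM in these shoots, and VTL5 (323 ± 14.9) at 6.36 and 11.9. The bearing of these levels on the IRT1 and FRO2 values was not tested. Of the 10 root hair markers 9 were at 0 in every WT shoot library and 6 in every CCA1-ox shoot library, where RHD6, EXPA18 and PRP3 had means of 0.00633, 0.00721 and 0.0596 FPKM. The sum of the 10 was 1.26 to 1.34 FPKM in WT shoots and 0.603 to 0.727 in CCA1-ox shoots, and nearly all of it was COW1, at 1.29 ± 0.0434 and 0.592 ± 0.0301 (n = 3). The 10 endodermis markers, 8 of them called higher in shoots and 1 lower, summed to 44.3 to 45.9 FPKM in WT shoots and to 66.4 to 71.7 in CCA1-ox shoots. They are not all particular to roots: SCR, the 1 called lower, was at 21.4 ± 0.780 FPKM in WT shoots and 13.6 ± 0.668 in WT roots. The 4 stele markers, all called higher in shoots, summed to 33.7 to 34.9 FPKM in WT shoots and to 74.0 to 77.0 in CCA1-ox shoots, a fold of 2.201. The background is 26.6% called higher and 28.9% lower, and the part of these cell types in the IRT1 and FRO2 values was not tested.

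The difference between the root and the shoot effect was tested as an interaction. It was called higher for 8 of the 9 genes and lower for 0 (background 27.2% higher and 23.5% lower), with a median log2 difference of 0.67 against 0.037 over all genes. For IRT2, CYP82C4, F6'H1 and S8H, which had 0 to 10 fragments per shoot group, the pseudocount of 1 holds the shoot effect near 0. Their interactions therefore restate the root effect (for S8H 2.24 beside a root effect of 2.28, for CYP82C4 1.35 beside 1.34) and are no separate evidence of a difference between organs. With voom the interactions of IRT2, CYP82C4 and S8H were not called (adjusted p = 0.880, 0.125 and 0.151). MYB10 was not called (−0.22, limma adjusted p = 0.0938). Scaling to summed fragments moved the median interaction of all genes by −0.15 and the share of higher genes among the calls from 53.6% to 29.0%, and the count of the 9 genes then was 8 higher and 1 lower.

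For the genes near 0 in shoots the sign of the interaction depended on the scale. IRT1 had an interaction of 0.43 on the log2(FPKM + 1) scale (limma adjusted p = 8.13e-05), and of −0.68 with a pseudocount of 0.1 (0.000695) and −1.64 with voom (0.00488). Its ratio of CCA1-ox to WT was 1.77 in roots and 5.40 in shoots, while its absolute rise was from 45.9 to 81.4 FPKM in roots and from 0.0730 to 0.394 in shoots. FRO2, with ratios of 2.002 and 2.36, had an interaction of 0.63 as deposited, 0.044 with a pseudocount of 0.1 (adjusted p = 0.863) and −0.41 with voom (0.284). With voom 4 genes were called, FIT, F6'H1 and PDR9 higher and IRT1 lower. Of all 20975 genes tested, 2274 were called higher and 7815 lower with voom.

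The other genes of iron homeostasis were followed with a list of 67 genes, also chosen with earlier results of these data known. Of these 67 genes 60 were tested. In CCA1-ox roots 33 of these rose and 11 fell (background 20.8% and 15.4%), and in CCA1-ox shoots 30 rose and 10 fell (background 26.6% and 28.9%). The counts in roots were 28 and 13 with libraries scaled to summed fragments, and those in shoots 38 and 5. That scaling also moved the background. Of all 20975 genes tested, 2953 were then called higher and 4665 lower in roots, and 7612 higher and 3914 lower in shoots. The 13 lower genes in roots were thus near the background. Of the 28 genes called in both organs, 20 were higher in both, 3 lower in both, 3 higher in roots and lower in shoots, and 2 the reverse. The matching counts over all genes were not made, so this split is a description and no result about the list. BHLH18, BHLH19, BHLH25, CYP82C3, FRO1, VIT1 and NAS3 were too low to be tested.

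The partners of FIT rose with it in roots. Of 20 tested regulators 11 rose in roots, 3 fell (background 20.8% and 15.4%) and 6 were not called. The count of lower genes was thus near the background. The largest rises were those of BHLH38 (AT3G56970), from 7.44 ± 0.167 to 13.7 ± 0.111 FPKM (log2 0.81, limma adjusted p = 4.98e-10), and BHLH39 (AT3G56980), from 25.5 ± 1.39 to 41.8 ± 0.602 (0.69, 2.92e-08). The 3 that fell were IMA1 (AT1G47400, −0.37, 0.0151), BHLH34 (AT3G23210, −0.36, 0.00126) and URI (AT3G19860, −0.14, 0.0101). BTSL1 (AT1G74770), one of the ubiquitin ligases known to limit the iron response, rose from 16.5 ± 0.208 to 23.9 ± 0.874 FPKM (0.51, 2.19e-06). In shoots 12 regulators rose and 1 fell (background 26.6% and 28.9%). The largest rises there were IMA2 (AT1G47395), a peptide gene of the iron response, from 50.1 ± 2.71 to 108 ± 6.23 FPKM (1.10, 2.08e-08), BHLH38, from 34.1 ± 0.751 to 62.4 ± 1.41 (0.85, 7.26e-11), and BHLH20 (AT2G22770, a bHLH factor of another subgroup), from 12.7 ± 0.549 to 22.7 ± 0.870 (0.79, 1.17e-09). IMA2 was not called in roots (−0.024, limma adjusted p = 0.842).

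The list of coumarin and phenylpropanoid genes also holds general phenylpropanoid enzymes, beta-glucosidases and paralogs of the coumarin genes. Of its 12 tested genes 10 rose in roots and 0 fell (background 20.8% and 15.4%). Among the 10 were, besides CYP82C2, COSY (AT1G28680), the coumarin synthase, from 55.3 ± 1.33 to 75.0 ± 1.77 FPKM (log2 0.43, limma adjusted p = 2.64e-07), and 4CL1 (AT1G51680), a coumarate-CoA ligase, from 85.1 ± 1.85 to 109 ± 1.81 (0.35, 1.27e-07). 4CL2 (AT3G21240), another coumarate-CoA ligase gene, was not called in roots (0.083, adjusted p = 0.329). In shoots 7 rose and 1 fell (background 26.6% and 28.9%). The largest shoot rises were those of the beta-glucosidase genes PYK10 (AT3G09260), from 1033 ± 14.4 to 2358 ± 23.2 FPKM (1.19, 2.21e-15), and BGLU22 (AT1G66280), from 0.199 ± 0.0422 to 1.15 ± 0.0960 (0.84, 9.16e-10), and of 4CL2, from 9.01 ± 0.937 to 14.9 ± 0.847 (0.67, 6.12e-07).

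Transport and chelation genes were called in both directions. Of 18 tested reductase and transport genes 9 rose in roots and 3 fell (background 20.8% and 15.4%), so the count of lower genes was near the background. The proton pump gene AHA7 (AT3G60330) rose from 5.86 ± 0.177 to 10.6 ± 0.416 FPKM (log2 0.75, limma adjusted p = 2.20e-06). IREG1 (AT2G38460), an iron exporter that loads the xylem, fell from 3.96 ± 0.214 to 1.62 ± 0.229 (−0.92, 4.68e-07), and FRD3 (AT3G08040), which exports citrate into the xylem, from 32.9 ± 2.25 to 20.03 ± 1.51 (−0.69, 2.13e-05). In shoots 6 rose and 5 fell, shares near the background of 26.6% and 28.9% and so no result about this list. Those with the largest changes there were the transporter gene IRT3 (AT1G60960), from 5.25 ± 0.557 to 17.6 ± 0.186 FPKM (1.58, 2.22e-11), the vacuolar iron exporter gene NRAMP3 (AT2G23150), from 4.06 ± 0.815 to 8.07 ± 0.544 (0.85, 3.52e-06) and the chloroplast reductase gene FRO7 (AT5G49740), from 21.7 ± 1.11 to 14.4 ± 0.681 (−0.56, 1.99e-06). Of the genes for nicotianamine synthase, which makes a metal chelator, NAS1 (AT5G04950) rose in both organs, from 49.0 ± 0.621 to 82.5 ± 4.54 in roots (0.74, 1.69e-08) and from 21.2 ± 0.587 to 45.04 ± 2.02 in shoots (1.05, 1.35e-10). NAS2 (AT5G56080) rose in roots from 25.6 ± 1.08 to 34.0 ± 0.383 (0.40, 4.26e-05), a call lost with a pseudocount of 0.1 (0.0776). NAS4 (AT1G56430) fell in roots from 7.24 ± 0.291 to 5.35 ± 0.207 (−0.37, 2.11e-05) and rose in shoots from 39.9 ± 0.192 to 51.6 ± 2.94 (0.36, 1.26e-05).

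Iron storage genes mostly fell in roots, where 4 of 7 tested genes were called lower and 1 higher (background 15.4% lower and 20.8% higher). Ferritins store iron in plastids. FER1 (AT5G01600) fell from 75.9 ± 0.155 to 54.3 ± 2.46 FPKM (log2 −0.48, limma adjusted p = 4.49e-07), FER4 (AT2G40300) from 8.33 ± 0.483 to 5.33 ± 0.572 (−0.56, 1.48e-05) and FER2 (AT3G11050) from 3.46 ± 0.788 to 2.10 ± 0.201 (−0.51, 0.00552), the last call being lost with a pseudocount of 0.1 (0.0516). In shoots 3 storage genes rose and 3 fell (background 26.6% and 28.9%). Among them were the vacuolar transporter-like genes VTL1 (AT1G21140) from 0.555 ± 0.133 to 2.28 ± 0.131 FPKM (1.08, 1.61e-08) and VTL5 (AT3G25190) from 6.36 ± 0.695 to 11.9 ± 0.381 (0.81, 3.51e-08), and FER3 (AT3G56090) from 63.8 ± 1.03 to 45.6 ± 1.11 (−0.48, 1.30e-08). Of the 26 genes named from the list for the size of their change, 7 overlap a gene on the other strand (BHLH38, BTSL1, COSY, 4CL1, PYK10, AHA7 and FER1) and 2 (FER2 and FER4) on the same strand, and their values are uncertain to that extent.

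**Figure D3:**
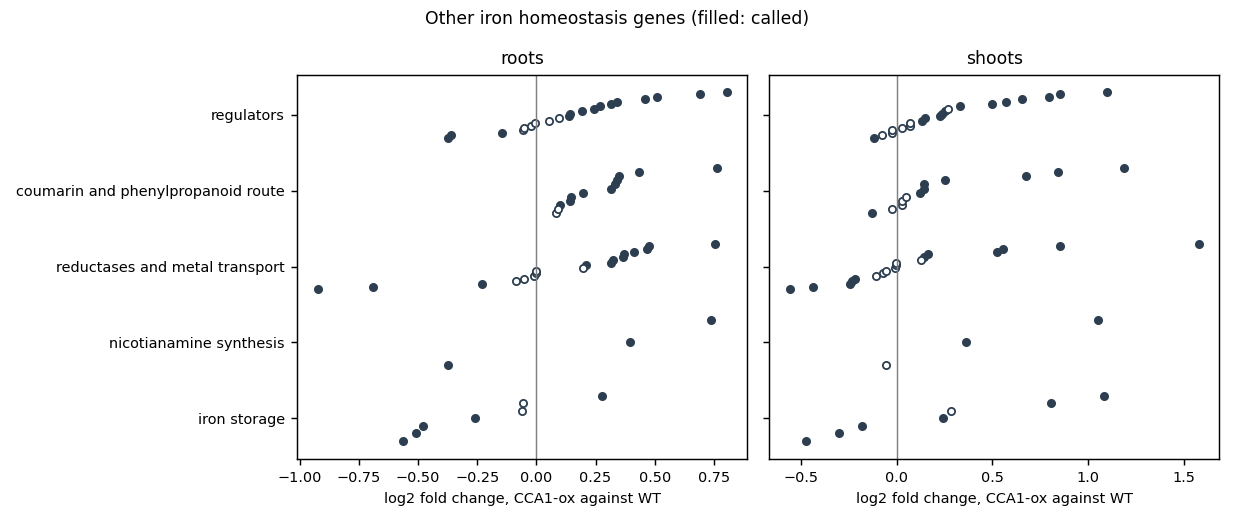
Log2 fold change of FPKM + 1, CCA1-ox against WT, of the 60 tested genes of iron homeostasis outside the group of 10, in roots (left) and shoots (right), in rows by role and sorted within a row. Filled points were called at an adjusted p under 0.05. On the deposited scale the coumarin row in roots lies above 0 throughout and 4 of 7 storage genes are filled below 0.

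Markers of root hairs and endodermis were also mostly higher in CCA1-ox roots. The marker lists too were chosen with earlier results of these data known. In bulk samples fewer cells of a type and less RNA per cell cannot be told apart. Of 10 root hair markers 8 were called higher in CCA1-ox roots and 1 lower (background 20.8% and 15.4% of all genes tested, here and for the other markers), and their sum was 103 to 105 FPKM in WT roots, against 146 to 150 in CCA1-ox roots, a fold of 1.42. Of 10 endodermis markers 10 were called higher, and their sum went from 402 to 414 FPKM in WT roots to 568 to 592 in CCA1-ox roots, a fold of 1.44. The 2 markers of non-hair epidermis were not called (sums of 12.5 to 14.7 and 12.8 to 13.2), of 4 stele markers 1 was called lower (283 to 287 and 268 to 275), and of 2 cortex markers 1 was higher and 1 lower (11.3 to 13.2 and 14.5 to 16.1). The 8 green tissue markers, 5 of them called lower, summed to 45.6 to 46.7 FPKM in WT roots, against 16.7 to 17.9 in CCA1-ox roots. The part of these cell types in the rise of the iron genes was not tested.

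**Figure D4:**
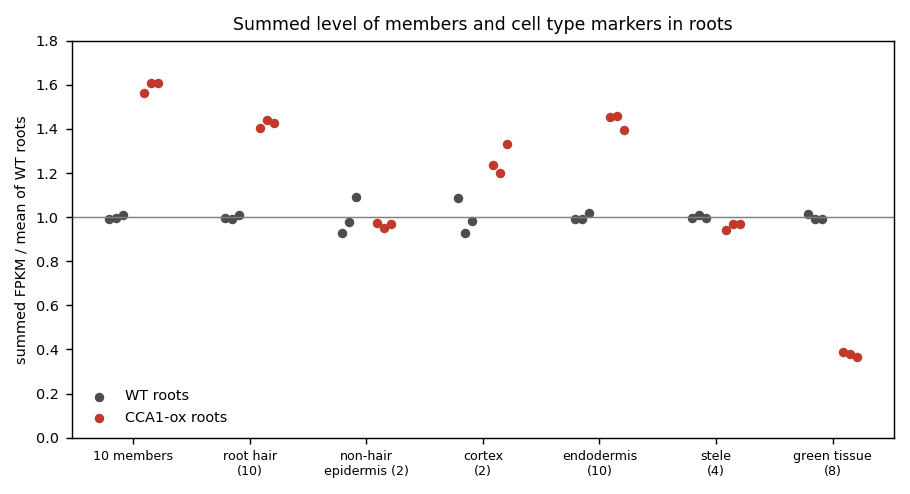
Summed FPKM of the 10 iron acquisition genes and of marker genes of 6 cell types (number of genes in brackets) in each root library, divided by the mean of the WT root libraries. The CCA1-ox points of the iron genes lie near 1.59, those of root hair and endodermis near 1.42 and 1.44, and those of green tissue near 0.377.

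The genes next to the 10 on the chromosome were followed in roots. Of 18 such neighbours outside the group, 11 were tested in roots, 2 of these were called higher and 0 lower (background 20.8% and 15.4%), so the count of higher genes was near the background, and their median log2 difference was 0.049. The 2 were AT3G12830, next to MYB10 (0.37, limma adjusted p = 0.0288), and AT3G53470, next to PDR9 (0.44, adjusted p = 0.000991). MYB10 and S8H lie 28820 bases apart on chromosome 3 with 10 genes between them, and their log2 differences in roots were 0.25 and 2.28.

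Over the 12 libraries 8 of the 9 tested genes followed a common profile, the mean of the standardized log2 levels of all 9. Pearson's r with it was 0.93 for S8H, 0.97 to 0.996 for the other 7 genes and 0.30 for MYB10. The profile holds each of these genes itself, and the 12 points are 4 groups in which the organs are far apart. Of 16502 other genes the most similar to the profile were CYP735A2 (AT1G67110, r = 0.998), which makes trans-zeatin cytokinins, GSTU12 (AT1G69920, 0.998), AT3G20370 (0.998), OASA1 (AT4G14880, 0.997), a cysteine synthase, and AT1G14390 (0.997). CYP735A2 stood at 0.256 and 0.669 FPKM in WT and CCA1-ox shoots and at 10.7 and 24.3 in WT and CCA1-ox roots. With a pseudocount of 0.1, 1 of these 5 genes, CYP735A2, was again among the 5 most similar.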

How the data were processed

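RNA sequencing of 12 libraries (4 groups of 3) gave the FPKM values that the authors deposited for 33010 genes, on the TAIR10 build named in the submitters' processing notes. Not given in the sources used here are the aligner, the counter, its strand setting and the handling of fragments that match several genes. Libraries were made with a stranded kit after column purification and DNase digestion, per the labels' protocols. FPKM times gene length came in whole steps (within 0.1), which gave back the fragment counts, 27142671 to 45051329 per library. Intervals on these would cover counting error only, and none are given. No replicate pair held identical values.

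The 20975 genes that reached 1 FPKM in 3 or more libraries were tested. With a mean for each of the 4 groups, log2(FPKM + 1), a scale that understates the change of low genes, was modelled with limma 3.58.1 in R 4.3.3 (moderated variances with a trend, 8 residual degrees of freedom, two-sided, Benjamini-Hochberg adjustment over all genes tested, called under 0.05). The script was tested on simulated data. Contrasts were CCA1-ox against WT in roots and in shoots, their difference, and roots against shoots in each genotype. Alternatives were other pseudocounts, filters and scalings, voom on the recovered fragments, a replicate block, fits of 1 organ or genotype, and leaving out each library.

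The 10 genes, the 67 other iron genes and the 36 marker genes were chosen with earlier results of these data known. Named from the list of 67 were, per role and organ, up to 3 called genes with the largest change, and besides them the 3 regulators called lower in roots. Promoters come from the RefSeq annotation of TAIR10.1. Of its genes 32536 matched the table, 99.95% of them with the same start and end. Coding identities were computed with Biopython 1.88. Protein sequences were not used here.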

Additional observations from a re-analysis of the deposited data

Results flagged for a closer look

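For 8 of the 9 tested genes the root effect minus the shoot effect of CCA1-ox passed the interaction test of limma on log2(FPKM + 1) (adjusted p under 0.05). Of all genes tested 27.2% were called higher and 23.5% lower, and all 8 were higher. For 4 of them that test is not informative about the organs, because 0 to 10 fragments stand behind each shoot group and the pseudocount of 1 holds the shoot effect near 0, so that the value restates the root effect. These are S8H (2.24), CYP82C4 (1.35), F6'H1 (0.91) and IRT2 (0.67). FIT had 0.67 and was the 1 gene of the 8 that was called in opposite directions, higher in roots and lower in shoots. PDR9 had 0.52, FRO2 0.63 and IRT1 0.43. The IRT1 and FRO2 values change sign with voom, and that of IRT1 also with a pseudocount of 0.1. With voom 4 of the 9 genes were called, 3 higher and 1 lower. Of all 20975 genes tested 10089 were called with voom, 2274 higher and 7815 lower, so the total of 4 was near the background.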

How the results depend on the processing

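The counts of called genes, both directions together, stayed within 1.5 times their first value under each alternative run, except the interaction with voom. There 4 genes were called (3 higher, 1 lower) in place of 8, and 10089 of all 20975 genes tested in place of 10636. The balance of directions was less stable. In shoots 3 higher and 1 lower became 2 higher and 3 lower with quantile normalization. In the interaction 8 higher and 0 lower became 6 higher and 1 lower with a pseudocount of 0.1. Leaving out each library in turn gave 8 to 9 called genes in roots, 4 to 5 in shoots, 8 to 9 in the interaction, 8 to 9 in WT and 8 to 8 in CCA1-ox for roots against shoots, and for the list of 67 genes 40 to 45 in roots and 35 to 40 in shoots. Signs turned for the IRT1 interaction (−0.68 with a pseudocount of 0.1, −1.64 with voom) and the FRO2 interaction (−0.41 with voom). With quantile normalization they turned for uncalled values of IRT2 (−0.0085) and S8H (−0.0039) in shoots, MYB10 in the interaction (0.025) and MYB10 in the WT organ comparison (−0.036). MYB10 in the CCA1-ox organ comparison turned with scaling to summed fragments (0.050) and voom (0.091). The cause was not tested, apart from the pseudocount, which sets the weight of values near 0. Replicate numbers did not clearly pair the samples: 18 correlations of deviations between libraries with the same number were −0.066 to 0.084, and 0 exceeded 0.1. Libraries with different numbers gave −0.11 to 0.086. Among WT shoots, CCA1-ox shoots and CCA1-ox roots most same-number values were above 0, and those with WT roots mostly below 0. A weak pairing cannot be judged from these values. With the number as a replicate block, 9 of the 10 genes were called in roots, 5 in shoots (PDR9 lower in addition, −0.17, limma adjusted p = 0.0249), 8 in the interaction and 8 in each organ comparison, and 43 and 36 of the list in roots and shoots. Depth limits IRT2, CYP82C4, F6'H1, S8H and MYB72 in shoots, where 0 to 27 fragments stand behind a group, and IRT1, whose shoot values rest on 13 fragments in WT.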
